A study of Mus musculus with 24 samples.

Results

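Expression of 7 genes that encode subunits of the GABA-A receptor (Gabra2, Gabra3, Gabra4, Gabra5, Gabrb1, Gabrb2 and Gabrd) was examined in neurons and glia of the mouse hippocampus 24 hours after kainic acid. The genes were taken by name, and all 7 were among the 53379 genes of the count table and among the 37598 genes that passed the filter on low counts. The clearest difference was in Gabrd, the gene of the delta subunit, which fell by 72.4% in neurons. Its call stood in only 1 of the 6 fits that left out a neuron library. The level of Gabra5, the gene of the alpha5 subunit, was 52.2% lower in neurons. That difference did not pass the threshold in the main fit. It passed with the replicate number in the fit and in some of the alternatives without it. In the NeuN- nuclei all 7 genes had lower mean levels after kainic acid, and which of them passed the test depended on the fit. None passed in the main fit, 4 with the replicate number in it, and 3 with DESeq2 or a stricter filter on counts. Over all genes, the calls in NeuN- nuclei numbered 281 in the main fit and 2871 with the replicate number. They numbered 1010 with DESeq2 and 1203, of 18632 genes tested, with the stricter filter.

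The libraries came from adult male C57/BL6N mice, a wild-type strain, which arrived at 8 weeks of age and were acclimatized for 4 weeks. KA mice received 70 nl of 20 mM kainic acid, an agonist of glutamate receptors that triggers status epilepticus, deep in the cortex next to the right hippocampus, and SH mice received saline in the same way. Right hippocampi of 8 mice per treatment were combined into 3 pools (4 mice in replicate 1, 2 mice in replicates 2 and 3), and nuclei of each pool were sorted by an antibody to NeuN, a protein of neuronal nuclei, into a NeuN+ fraction (neurons) and a NeuN- fraction (glia). Each pool gave 1 mRNAseq library per fraction, 12 in all, so the unit of replication was the pool and the RNA was that of nuclei.

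GABA-A receptors are chloride channels opened by GABA, the main inhibitory transmitter of the forebrain, and each is built of 5 subunits, usually alpha and beta subunits with a gamma or delta subunit. Receptors with a gamma subunit and alpha1, alpha2 or alpha3 sit largely at synapses and carry fast inhibition. Those with delta (paired with alpha4 in dentate granule cells) or with alpha5 (abundant in pyramidal cells of the hippocampus) lie mostly outside synapses and carry tonic inhibition, and delta receptors are sensitive to neurosteroids.

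Total counts ranged from 7769400 to 40364768 per library. SH glia replicate 1 and KA glia replicate 2 were amplified from 0.05 ng of RNA with 15 PCR cycles, the other 10 libraries from 1 ng with 10 cycles. The 4 libraries of replicate 3 had the fewest genes with a count in each group. Levels are given as CPM, read counts scaled to the size of the library after TMM factors (trimmed mean of M values), and as mean ± SD over 3 pools. A log2 fold change (logFC) is KA over SH, with its standard error (SE) from the fit, and FDR is the Benjamini-Hochberg adjusted p of edgeR's quasi-likelihood test over all 37598 genes, with a threshold of 0.25 for KA against SH. Rbfox3, which encodes NeuN, had 225 ± 53.7 CPM in SH neurons, 207 ± 45.2 in KA neurons, 44.7 ± 17.9 in SH glia and 32.0 ± 13.3 in KA glia. It was higher in the NeuN+ than in the NeuN- libraries by a logFC of 2.51 (FDR 2.15e-05, edgeR), as were all 9 genes of a neuronal marker list. All 10 astrocytic, 10 microglial, 8 oligodendrocytic and 5 oligodendrocyte precursor markers were lower in NeuN+.

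The first question was in which fraction each subunit is transcribed. All 7 genes were higher in NeuN+ than in NeuN- nuclei at FDR below 0.05, where 11.6% of all genes tested were called higher and 6.91% lower in NeuN+. In each of the 7 the 6 NeuN+ libraries lay above the 6 NeuN- libraries. How many of all genes have that pattern was not counted. Gabrd had the largest difference, with a logFC of 3.18 (SE 0.31, FDR 3.57e-06). Gabra5 and Gabra4 had nearly equal logFC values of 2.71 (SE 0.26) and 2.70 (SE 0.39). Gabra2 had 2.37 (SE 0.37), Gabrb2 2.31 (SE 0.30) and Gabrb1 1.88 (SE 0.23). The smallest difference was that of Gabra3, at 1.30 (SE 0.24, FDR 0.000785). Its call was lost when the 2 low-input libraries were left out or when SH libraries alone were compared.

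Within a pool, the level in NeuN- nuclei can be set against that in the NeuN+ nuclei of the same mice, beside the median of this ratio over 9 neuronal markers, which was 23.1% ± 6.34 in SH and 16.6% ± 5.34 in KA pools. Gabrd, Gabra5 and Gabra4 lay below the neuronal markers in all 3 SH pools, with means of 11.4% ± 7.19, 16.1% ± 6.15 and 16.5% ± 9.19. Gabra3 lay above them in all 3 pools of both treatments, with 53.6% ± 11.1 in SH and 30.1% ± 3.39 in KA. Gabrb1 lay above them in 3 SH pools (36.7% ± 5.96) and 2 KA pools (20.4% ± 5.35). The SH and KA pools did not overlap in this ratio for Gabra3 and Gabrb1, and they overlapped for the other 5 genes and for the markers. How much NeuN- signal came from neuronal nuclei or RNA in the NeuN- sort was not tested.

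**Figure D1:**
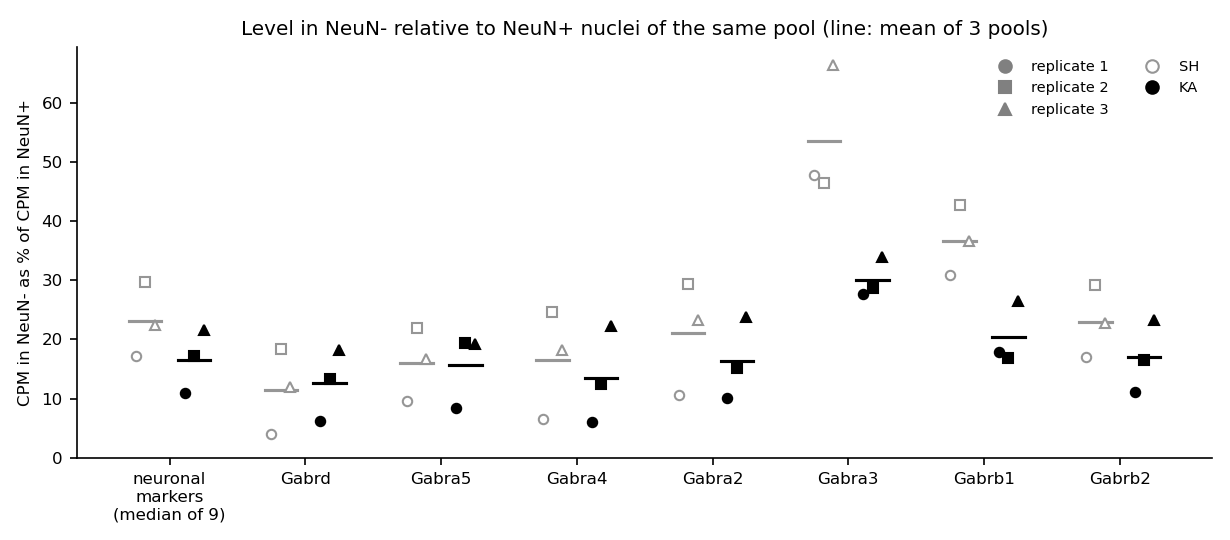
CPM in NeuN- nuclei as a percentage of the CPM in NeuN+ nuclei of the same pool, for the median of 9 neuronal markers and for each of the 7 genes. Open symbols are SH and filled symbols KA pools, symbol shape marks the replicate, and lines are means of 3 pools. Gabra3 lies above the markers in every pool, and Gabrd below them in every pool.

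Because reads per gene grow with transcript length, the genes were compared with each other only per kb of exon. In SH neurons the order was Gabra5 (70.9 ± 14.7 CPM per kb), Gabra4 (51.8 ± 9.71), Gabra2 (34.8 ± 11.1), Gabrd (28.9 ± 9.41), Gabrb2 (19.9 ± 6.03), Gabrb1 (19.2 ± 1.83) and Gabra3 (5.44 ± 1.13). The ranges of neighbours overlapped throughout this order, apart from Gabrb1 and Gabra3, although Gabra5 exceeded Gabra4 and Gabra4 exceeded Gabra2 within each of the 3 libraries. In KA neurons the order was Gabra4 (35.2 ± 2.48), Gabra5 (33.9 ± 3.70), Gabra2 (31.8 ± 6.79), Gabrb2 (19.4 ± 1.15), Gabrb1 (18 ± 1.16), Gabrd (7.98 ± 1.75) and Gabra3 (5.77 ± 0.50). Here the first 3 overlapped one another, and Gabrd stood in the sixth place, with its range apart from that of Gabrb1 above it. In SH glia the order ran from Gabra5 (10.8 ± 2.39 CPM per kb) to Gabrd (2.86 ± 1.23) with every pair of neighbours overlapping, and in KA glia from Gabra2 (5.48 ± 3.24) to Gabrd (0.96 ± 0.44), with Gabrb2, Gabra3 and Gabrd apart from one another.

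Of the summed per-length level of the 7 genes in neurons, Gabrd held 12.4% ± 3.27 in SH and 5.26% ± 1.22 in KA, and Gabra5 held 30.8% ± 4.86 and 22.3% ± 2.96. For both genes every KA library had a smaller share than every SH library. The sum itself was 231 ± 37.7 CPM per kb in SH and 152 ± 3.91 in KA neurons, without overlap. In glia it was 44.7 ± 16.4 in SH and 25.2 ± 10.2 in KA, and there the libraries overlapped.

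**Figure D2:**
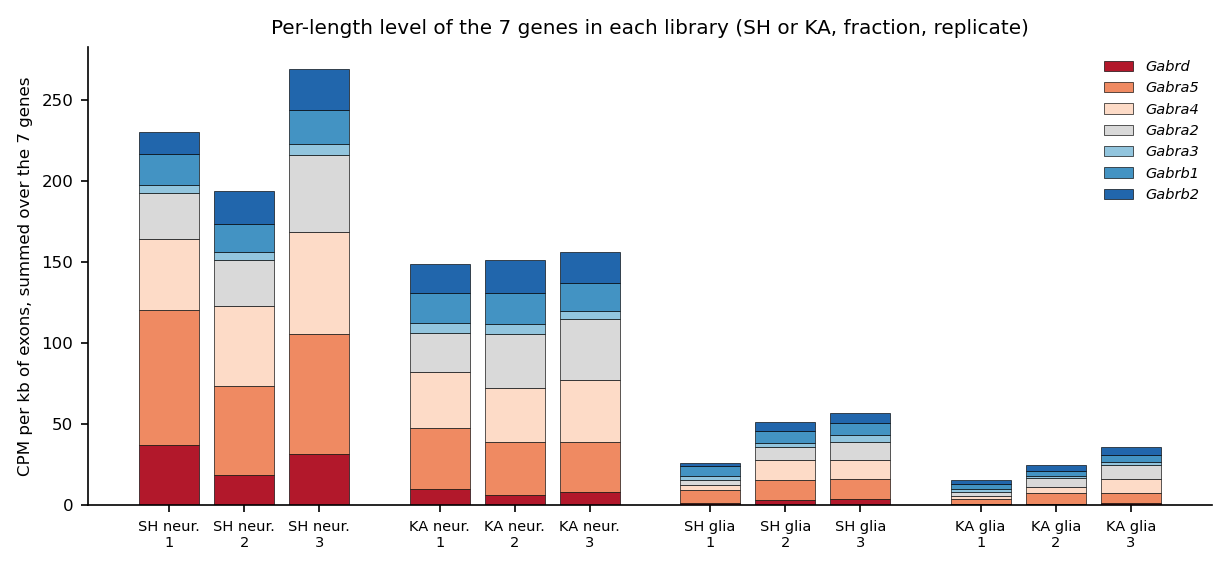
Level per kb of exon of each of the 7 genes, stacked, in each of the 12 libraries (x axis: treatment, fraction and replicate, y axis: CPM per kb). The 3 KA neuron libraries sum to between 149 and 156 CPM per kb, below the 3 SH neuron libraries at 194 to 269, and the Gabrd and Gabra5 segments at the bottom are shorter in KA.

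The main comparison asked which subunit genes differ between KA and SH. In neurons 1 of the 7 genes passed the threshold, Gabrd, and it was lower, where 0.0612% of all genes tested were called lower. The median logFC of the 7 genes was −0.13, beside 0.00048 for all genes tested and −0.06 for protein-coding genes. With the replicate number as a block in the fit, Gabrd and Gabra5 passed, both lower, where 1.11% of all genes were called lower. In 3 genes (Gabrd, Gabra5 and Gabra4) every KA library lay below every SH library, a pattern found in 4.45% of all genes.

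Gabrd (ENSMUSG00000029054, GRCm38 chr4:155384980-155398112, minus strand) encodes the delta subunit of tonic, extrasynaptic receptors. SH neurons had 106, 53.2 and 90.5 CPM in replicates 1, 2 and 3, and KA neurons had 27.9, 17.9 and 23.1. The groups did not overlap, and the highest KA library was well below the lowest SH library. The logFC was −1.86 (SE 0.42, FDR 0.169, edgeR), and with the replicate block it was −1.82 (FDR 0.000877). The paper treated the fractions separately in edgeR, and its list of genes lower in neurons at the same FDR threshold does not hold Gabrd. It also left out genes without an official symbol, so the set of genes tested differed. Here the 6 neuron libraries fitted alone (32012 genes tested) called Gabrd as well. The reason for the unlike lists was not tested. The Gabrd values rested on 1262 to 2217 reads per SH library and 327 to 569 per KA library. The sign was the same in each fit that left out 1 neuron library (logFC −2.10 to −1.65), but the call stood in only 1 of these 6 fits, the one without SH neurons replicate 2. The FDR was 0.777 without SH replicate 1, 0.546 without SH replicate 3, and 0.251, 0.886 and 0.945 without KA replicates 1, 2 and 3. It was also above the threshold without KA glia replicate 1 (0.336) or KA glia replicate 2 (0.548), whose spread enters the same fit.

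In libraries of pooled nuclei, fewer nuclei of a type and less RNA per nucleus cannot be told apart. Markers of dentate granule cells moved with Gabrd. Of 9 such markers 8 had a negative logFC in neurons, with a median of −1.16, and 2 passed the threshold, both lower. Calb1, a calcium-binding protein, fell from 170 ± 46.7 to 64.8 ± 17.4 CPM (logFC −1.40, SE 0.33, FDR 0.213, edgeR) and Stxbp6, a regulator of vesicle fusion, from 92.7 ± 32.0 to 31.9 ± 6.24 CPM (logFC −1.54, SE 0.37, FDR 0.209). Prox1, a transcription factor of granule cells (chosen after its values were seen), had 150 ± 68.1 CPM in SH and 160 ± 35.1 in KA neurons. Its level was as high in NeuN- nuclei, with 156 ± 51.6 CPM in SH and 164 ± 95.7 in KA glia. The logFC of NeuN+ over NeuN- was −0.05 (FDR 0.948, edgeR), so Prox1 was not particular to neurons in these libraries. Stxbp6 did not pass that comparison either (logFC 0.29, FDR 0.559), while Calb1 was higher in NeuN+ (logFC 2.26, FDR 6.72e-06). Of the 9 markers 4 were higher in NeuN+ at FDR below 0.05. The summed level of the 9 markers was 750 to 1197 CPM in SH and 514 to 582 in KA neurons, and none was at 0 in any library. Of 9 neuronal markers none was called in neurons, with a median logFC of −0.12. Of the 7 CA1 pyramidal, 7 CA3 pyramidal and 11 interneuron markers none was called either, with medians of −0.22, −0.01 and −0.12. Under the replicate block, the fit in which Gabra5 passed, 5 of the 9 granule cell markers were called lower, 1 CA1 marker was called lower (Dcn, a matrix proteoglycan, logFC −1.54, FDR 0.00397, edgeR) and 1 interneuron marker higher (Npy, neuropeptide Y, logFC 1.73, FDR 0.0372), where 1.94% of all genes were called higher. Both were chosen after their values were seen. No neuronal or CA3 marker was called with the block, and of the glial markers in neurons 1 astrocytic, 1 microglial, 1 oligodendrocytic and 1 precursor marker were lower and 1 astrocytic marker was higher. The part of the granule cell markers in the Gabrd result was not tested.

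Gabra5 (ENSMUSG00000055078, GRCm38 chr7:57407672-57510059, minus strand) encodes the alpha5 subunit. It had 249, 163 and 221 CPM in SH neurons and 113, 96.8 and 92.5 CPM in KA neurons. All 3 KA libraries lay below the lowest SH library. The logFC was −1.06 (SE 0.35) with an FDR of 0.703, not past the threshold, and −1.05 (SE 0.23) with an FDR of 0.0250 under the replicate block, which is past it (edgeR). It also passed without a block in 3 alternatives, with at least 10 reads in every library (FDR 0.233), with DESeq2 (adjusted p 0.183) and with the 6 neuron libraries alone (FDR 0.118). Of its exonic sequence 4.98% is shared with Gm9962 on the opposite strand, and reads were counted without regard to strand.

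Gabra4 (ENSMUSG00000029211, GRCm38 chr5:71569749-71658308, minus strand), the alpha subunit that joins delta in granule cells, had 265, 299 and 380 CPM in SH neurons and 208, 203 and 231 CPM in KA neurons. The KA libraries again lay below all SH libraries, by a smaller margin. The logFC was −0.56 (SE 0.52, 95% interval −1.65 to 0.54), and it passed the threshold neither in this fit nor with the replicate block (FDR 0.573, edgeR).

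**Figure D3:**
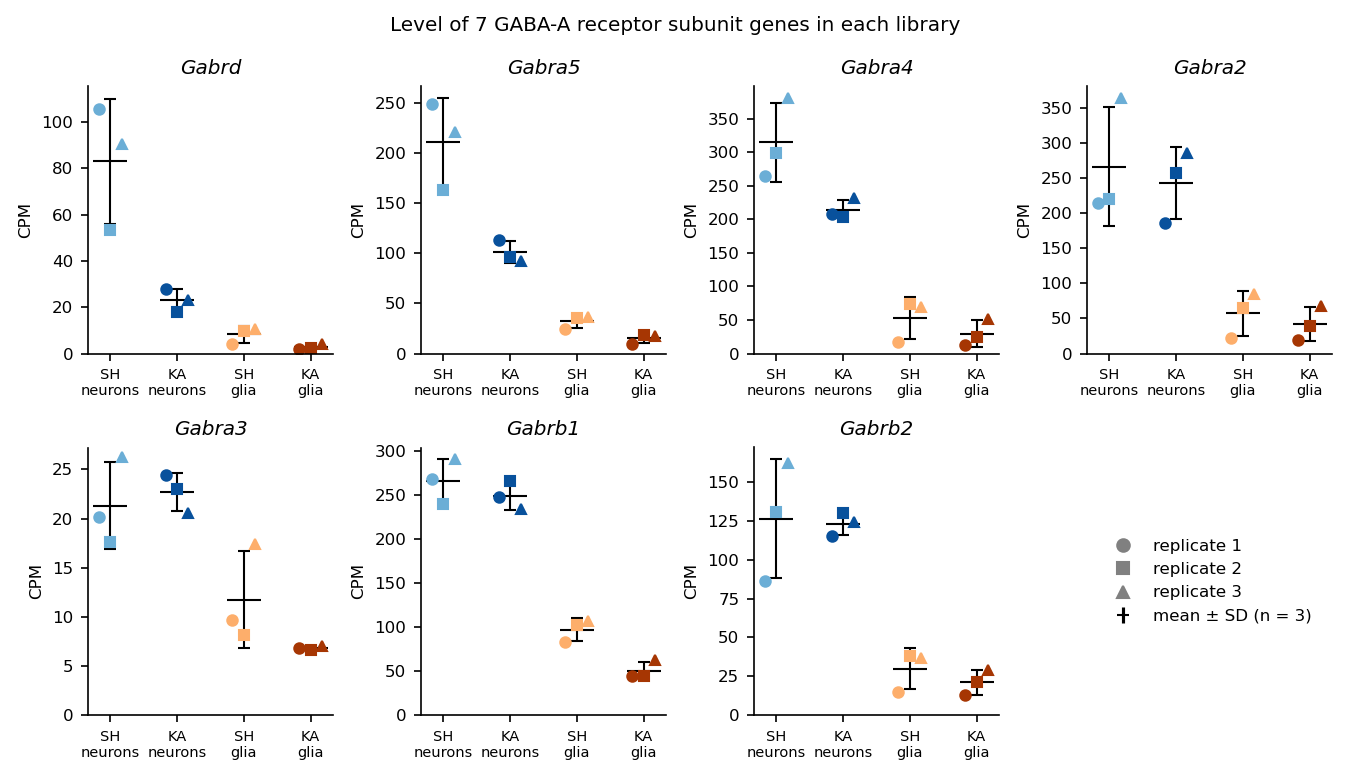
CPM of each gene in the 12 libraries, by treatment and fraction, with the replicate shown by symbol and the mean ± SD of 3 pools in black (each panel has its own linear axis from 0). For Gabrd, Gabra5 and Gabra4 all KA neuron libraries lie below all SH neuron libraries, while for Gabra2, Gabra3, Gabrb1 and Gabrb2 they overlap.

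The alpha subunits of synaptic receptors showed no detectable difference in neurons. Gabra2 (ENSMUSG00000000560, GRCm38 chr5:70957597-71095849, minus strand) had 215, 220 and 364 CPM in SH and 185, 257 and 286 CPM in KA neurons, and the groups overlapped (logFC −0.13, 95% interval −1.19 to 0.92). Gabra3 (ENSMUSG00000031343, GRCm38 chrX:72432681-72656848, minus strand), the gene with the lowest per-length level, had 20.2, 17.6 and 26.2 CPM in SH and 24.4, 23.0 and 20.6 CPM in KA neurons. Its groups overlapped too (logFC 0.09, 95% interval −0.62 to 0.79).

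The beta subunits, which contribute to the GABA binding site, showed no detectable difference in neurons either. Gabrb1 (ENSMUSG00000029212, GRCm38 chr5:71658113-72149037, plus strand) had 268, 240 and 290 CPM in SH and 248, 266 and 234 CPM in KA neurons (logFC −0.09, 95% interval −0.77 to 0.58). Gabrb2 (ENSMUSG00000007653, GRCm38 chr11:42419757-42629028, plus strand) had 86.3, 131 and 163 CPM in SH and 116, 130 and 125 CPM in KA neurons (logFC −0.04, 95% interval −0.89 to 0.82). In both genes the treatments overlapped, and the intervals still allow changes in either direction. When libraries were scaled by their totals alone, the median logFC of all genes moved by 0.11 in neurons and by 0.28 in glia, and the logFC of Gabra2, Gabrb1 and Gabrb2 in neurons turned positive. Relative to the median of all genes on that scale they were −0.09, −0.07 and 0.01.

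In glia none of the 7 genes passed the threshold in the fit without a block, where 0.306% of all genes were called lower. An unadjusted p under 0.05 (edgeR) was found for 4 of the 7 genes and for 1800 of all 37598 genes. DESeq2 called 3 of these 4, and 1010 genes in all. With the replicate block 4 genes passed, all lower (Gabrd, Gabra5, Gabrb1 and Gabra4), where 4.17% of all genes were called lower. The logFC was negative for all 7 genes, with a median of −0.85, beside 0.14 for all genes and 0.01 for protein-coding genes. KA libraries lay below all SH libraries for Gabra3, Gabra5 and Gabrb1, a pattern found in 3.00% of all genes. With libraries scaled by totals alone, it held for Gabrb1 and Gabrd.

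Gabrd had 4.18, 9.74 and 10.8 CPM in SH glia and 1.74, 2.37 and 4.20 CPM in KA glia. The treatments met at SH replicate 1, the low-input library. The logFC was −1.56 (SE 0.43) with an FDR of 0.264, just above the threshold, and −1.57 with an FDR of 0.00425 under the replicate block (edgeR). Counts were low, at 52 to 360 reads per SH library and 20 to 102 per KA library. Without SH glia replicate 1 the FDR was 0.139 and without KA glia replicate 3 it was 0.197, both past the threshold.

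Gabra5 had 24.0, 35.8 and 36.9 CPM in SH glia and 9.56, 18.7 and 17.7 CPM in KA glia, with every KA library below every SH library. Its logFC of −1.07 (SE 0.35) had an FDR of 0.496, and with the replicate block it was −1.10 with an FDR of 0.0123 (edgeR), past the threshold. Gabrb1 had 82.6, 103 and 106 CPM in SH glia and 44.2, 44.8 and 62.1 CPM in KA glia, also without overlap. Its logFC of −0.95 (SE 0.32) had an FDR of 0.573, and with the replicate block it was −0.96 with an FDR of 0.0250, past the threshold.

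Gabra4 had 17.4, 73.8 and 69.5 CPM in SH glia and 12.4, 25.1 and 51.7 CPM in KA glia. Its lowest SH value was that of the low-input library, and the treatments overlapped. The logFC was −0.85 (SE 0.52, FDR 1.00), and −0.83 with an FDR of 0.114 under the block, past the threshold. Gabra3 had 9.65, 8.18 and 17.4 CPM in SH glia and 6.78, 6.58 and 7.0 CPM in KA glia, without overlap, but passed in neither fit (logFC −0.80, SE 0.34, FDR 0.923, and FDR 0.319 with the block). Gabra2 ranged from 22.6 to 84.6 CPM in SH and from 18.7 to 67.9 in KA glia, and Gabrb2 from 14.6 to 38.2 and from 12.8 to 29.1, both with overlap (logFC −0.45 and −0.51, neither called).

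Neuronal markers moved in the same direction in these libraries. All 9 had a negative logFC in glia, with a median of −0.48, and none was called. Their summed level was 496 to 1605 CPM in SH and 388 to 1362 CPM in KA glia. Astrocytic markers had a median logFC of −0.94 (8 of 10 negative, none called), with summed levels of 1936 to 2882 CPM in SH and 1227 to 2352 in KA glia. Oligodendrocyte precursor markers had a median of −0.99 (5 of 5 negative, 1 called lower), with 1364 to 2371 CPM in SH and 655 to 1355 in KA glia, and oligodendrocytic markers a median of −0.90 (8 of 8 negative, none called), with 14181 to 29617 and 7466 to 14058 CPM. Microglial markers had a median of −0.50 (9 of 10 negative, 2 called lower), with 1165 to 2722 and 873 to 1843 CPM. Of the granule cell markers 1 was called lower, Calb1 (36.4 ± 6.38 CPM in SH and 13.1 ± 1.90 in KA glia, FDR 0.124, edgeR), with a median over the 9 of −0.43. Pericytic markers had a median of −0.37, endothelial markers of 0.77 and blood leukocyte markers of 0.56, with none called. Under the replicate block, the fit in which 4 of the 7 genes passed, more markers were called. Of the astrocytic markers 7 were lower and 1 higher (3.47% of all genes were called higher), of the oligodendrocytic 4, the precursor 4, the microglial 3, the granule cell 3, the interneuron 3, the neuronal 1 and the pericytic markers 1 were lower, and 1 interneuron and 1 endothelial marker were higher. The part of these markers in the result for the 7 genes was not tested.

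**Figure D4:**
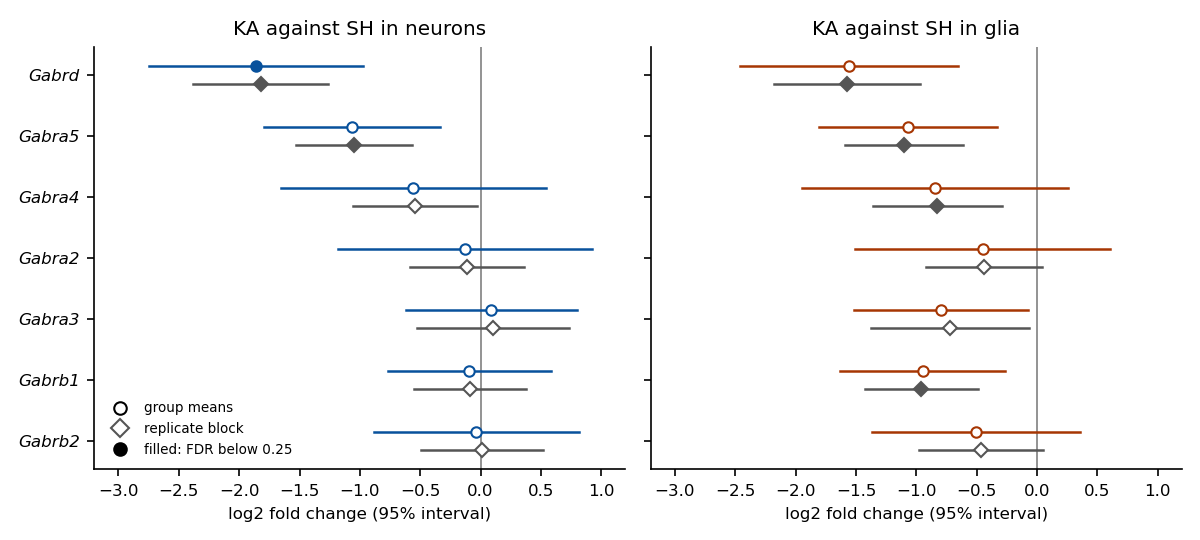
Log2 fold change of KA over SH for each gene in neurons (left) and glia (right), with 95% intervals. Circles are the fit with group means and diamonds the fit with a replicate block, and filled symbols passed an FDR of 0.25. In neurons the estimates run from −1.86 for Gabrd to 0.09 for Gabra3, and in glia all 7 lie below 0.

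Whether the change differs between the fractions was tested directly. None of the 7 genes passed, and neither did any other gene (0% of all genes tested), with 0 of the 7 genes and 502 of all genes at an unadjusted p under 0.05. Since each pool gave a library of both fractions, a block by pool was fitted too. It called 177 genes (0.471% of all genes tested) and DESeq2 without a block called 39, none of them among the 7. Gabrb1 and Gabra3, which were close to no change in neurons and lower in glia, had the largest differences, with logFC in neurons minus logFC in glia of 0.85 (SE 0.45, 95% interval −0.10 to 1.81) and 0.88 (SE 0.48, 95% interval −0.13 to 1.89). With the block by pool the differences were 0.87 (95% interval 0.20 to 1.53, unadjusted p 0.0139, FDR 0.715, edgeR) and 0.82 (95% interval 0.11 to 1.53, unadjusted p 0.0274, FDR 0.910), so that both intervals lay above 0 and neither gene passed over all genes. For Gabrd the difference was −0.30 (95% interval −1.54 to 0.94) and for Gabra5 0.0035 (95% interval −0.96 to 0.96), so that a sizeable difference in either direction remained possible.

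Of the 7 genes 3 lie in one cluster on chromosome 5. There the 5′ ends of Gabra4 and Gabrb1 face away from each other on opposite strands and overlap by 196 bp of gene span, with 46 bp of shared exon (0.76% of the exonic length of Gabra4, 0.33% of that of Gabrb1). Counting ignored the strand and left out reads on both genes. Gabra2 lies 473899 bp from Gabra4. In neurons KA and SH stood apart for Gabra4 and overlapped for Gabrb1, with logFC values of −0.56 and −0.09 and overlapping intervals. Windows from 250 bases before to 50 after a start site (RefSeq, GRCm38.p6) were available for 6 of the 7 genes, 10 windows in all, and none was given for Gabrd. The promoters of this divergent pair and of Gabra5, the second gene called in neurons under the block, are shown on their own strand, 5′ to 3′, with matches to the motifs below in capitals.

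Gabra4, GRCm38.p6 chr5:71658259-71658558, minus strand: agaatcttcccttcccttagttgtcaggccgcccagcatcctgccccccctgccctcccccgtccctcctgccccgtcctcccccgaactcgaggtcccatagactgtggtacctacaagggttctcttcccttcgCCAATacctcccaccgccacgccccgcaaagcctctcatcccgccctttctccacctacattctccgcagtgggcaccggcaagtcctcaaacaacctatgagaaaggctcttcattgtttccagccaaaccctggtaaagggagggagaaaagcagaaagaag

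Gabrb1, GRCm38.p6 chr5:71657671-71657970, plus strand: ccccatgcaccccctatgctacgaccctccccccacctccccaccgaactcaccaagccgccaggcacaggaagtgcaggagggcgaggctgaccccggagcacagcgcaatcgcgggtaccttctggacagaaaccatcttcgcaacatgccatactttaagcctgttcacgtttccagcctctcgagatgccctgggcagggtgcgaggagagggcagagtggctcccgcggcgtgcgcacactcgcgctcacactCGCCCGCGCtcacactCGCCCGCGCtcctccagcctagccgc

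Gabra5, GRCm38.p6 chr7:57510010-57510309, minus strand: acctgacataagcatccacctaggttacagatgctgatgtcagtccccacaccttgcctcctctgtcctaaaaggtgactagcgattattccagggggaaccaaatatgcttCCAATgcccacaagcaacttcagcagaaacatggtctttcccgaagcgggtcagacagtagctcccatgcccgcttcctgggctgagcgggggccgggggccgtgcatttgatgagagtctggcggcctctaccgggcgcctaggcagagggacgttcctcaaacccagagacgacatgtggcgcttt

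Both strands of each window were searched for 4 patterns of factors that act in activity-dependent or basal transcription. The cyclic AMP response element TGACGTCA was in 0 of 10 windows (1.79% of 32851 promoters of the same length hold it) and the AP-1 site TGANTCA in 0 of 10 (7.81% of promoters). The Egr site GCGNGGGCG was in 2 of 10 windows (5.55% of promoters), with a pair of matches in the Gabrb1 window above, read there on the opposite strand, and 1 in a window of Gabrb2. The CCAAT box was in 6 of 10 windows of 5 genes (37.4% of promoters), including those of Gabra4 and Gabra5 above. No marked matches overlap in these 3 windows. Matches are a description of the letters in the windows.

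The genes whose pattern over the 12 libraries was most like that of each subunit were found by Pearson's r of log2(CPM + 1), among 12795 protein-coding genes with a mean of at least 5 CPM. The 12 libraries come from 6 pools, and the genes share in each its fraction, pool and depth. Gabrd was most like C1ql2, a secreted synaptic protein of granule cells that is also in the granule cell marker list (r = 0.991), and Lin7b, a scaffold protein (0.990). C1ql2 had 273 ± 69.1 CPM in SH and 122 ± 11.1 in KA neurons. Gabra5 was most like Neurod6, a transcription factor of pyramidal neurons (0.992), and Elmod1 (0.991). Gabra4 was most like Scn2a, a sodium channel (0.995), and Cpne7 (0.995), Gabra2 like Sprn (0.997) and Dmtn (0.995), and Gabra3 like Vstm2b (0.965) and Kcnn2, a calcium-activated potassium channel (0.955). Gabrb1 was most like Ntm, a cell adhesion molecule (0.986), and Pcsk2, a prohormone convertase (0.985), and Gabrb2 like Atp2b2, a calcium pump (0.996), and Vwa5b2 (0.995). Among the 7 genes, Gabra5 and Gabrd had an r of 0.983 over the 12 libraries and 0.825 after the group means were removed, and Gabra2 and Gabra4 0.985 and 0.953.

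The rest of the GABA system was described by 6 lists with 66 tested genes, of which 0 were called in neurons and 1 in glia. Under the replicate block 2 were called in neurons, both lower, and in glia 19 were called lower and 2 higher. The 12 other GABA-A subunit genes had a median logFC of 0.13 in neurons and 0.04 in glia and none was called. With the block 3 of them passed in glia, all lower, among them Gabrg1 and Gabrr2 (both chosen after their values were seen). Gabrg1, a gamma subunit, had 41.0 CPM in SH and 14.7 CPM in KA glia on average. Its logFC was −1.48 (FDR 0.256, edgeR) in the main fit and −1.49 (FDR 0.0193) with the block. The logFC of NeuN+ over NeuN- was negative for 6 of the 12. At FDR below 0.05 only Gabrr2, a rho subunit, was called lower in NeuN+ (48.4 CPM in SH glia, 2.35 CPM in SH neurons), while 4 were called higher.

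Of 20 genes for anchoring, assembly and trafficking of the receptor none was called, with medians of −0.07 in neurons and −0.46 in glia. Of 10 genes for GABA synthesis, transport and breakdown 1 passed in glia, Slc6a11, the GABA transporter GAT3 of astrocytes. It fell from 130 ± 24.4 CPM in SH to 40.1 ± 18.6 CPM in KA glia (logFC −1.70, SE 0.39, FDR 0.128, edgeR), beside the lower astrocytic markers given above. The medians of this list were −0.37 in neurons and −0.51 in glia. Of 6 GABA-B receptor genes, 12 genes of chloride and bicarbonate balance and 6 of neurosteroid synthesis none was called, with medians in neurons of −0.26, −0.26 and −0.21 and in glia of −0.53, −0.31 and −0.10.

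**Figure D5:**
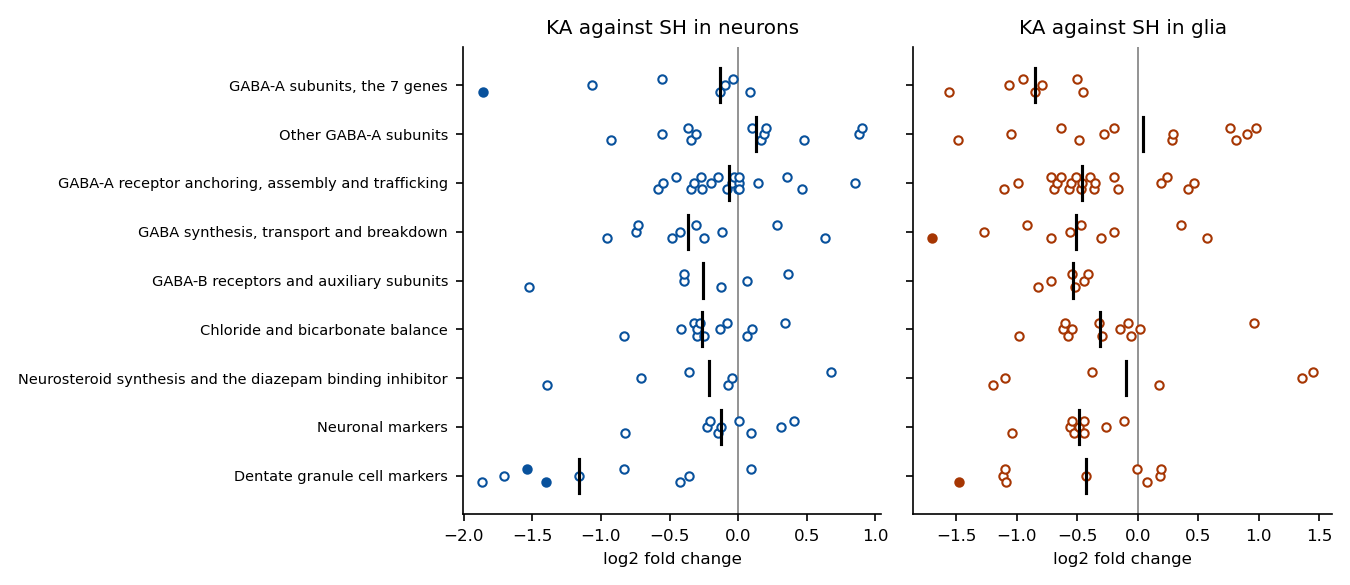
Log2 fold change of KA over SH in neurons (left) and glia (right) for the 7 genes, 6 lists of the GABA system and 2 marker lists. Each circle is a gene (spread vertically only to separate them), filled where FDR was below 0.25, and the black line is the median of the list. In neurons Gabrd and 2 granule cell markers are filled, and in glia Slc6a11 and 1 granule cell marker.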

How the data were processed

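The mRNAseq libraries of 4 groups (KA and SH, NeuN+ and NeuN-, 3 pools each) were used. RRBS data were not used here. The authors trimmed reads with Trim Galore 0.4.3, aligned them to mm10 with Rsubread and deposited a table of raw read counts per gene (uniquely mapped reads, featureCounts defaults, GENCODE M16), without normalization. Symbols, positions and exonic lengths came from GENCODE M21 (GRCm38), which lacks 105 of the 53379 gene IDs. Those were left out.

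Counts were filtered with filterByExpr (minimum count 10, minimum total 15), scaled by TMM and fitted with edgeR 4.0.16 (glmQLFit, legacy=TRUE, R 4.3.3, limma 3.58.1) with 4 group means over the 12 libraries. P-values were adjusted by Benjamini-Hochberg over 37598 genes, with an FDR of 0.25 for KA against SH and for the difference, and 0.05 for NeuN+ against NeuN-. No pair of libraries was identical. The pools are separate groups of mice. P-values of the main fit measure the spread among libraries of the same group, with the 12 libraries taken as independent. That fit therefore ignores that both fractions come from the same pools, for NeuN+ against NeuN- and for the difference. P-values of the block fits measure the spread left after the replicate or pool effect is removed. Intervals are those of the fit. DESeq2 1.42.0, other filters and scalings, separate fits, blocks and left-out libraries were alternatives. The fits were tested on simulated counts with known changes, drawn independently for each library. These counts hold no effect shared by a replicate number or a pool. They therefore cannot show how the fits perform on libraries that vary together.

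KA and SH libraries share replicate numbers, which mark the pool size (4 mice in replicate 1) per the study's methods. Whether they also mark a shared day or litter is not given in the sources used here. The deviations of same-numbered libraries from their group means correlated across genes in all 6 pairs (r = 0.399, 0.264 and 0.551 in neurons, 0.457, 0.543 and 0.764 in glia). Libraries with different numbers had r from −0.502 to 0.142 in neurons and from −0.671 to 0.349 in glia. The lowest value in each fraction was that of KA replicate 1 with SH replicate 3. Since deviations within a group cancel out, negative values between other pairs are partly built in. On this ground a replicate block within each fraction was fitted beside the main model.

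The genes and lists were chosen with earlier results of these data known. Named genes are the 7 subunits, list genes past the threshold, the 2 protein-coding genes most like each subunit, Rbfox3, and those said to be chosen after their values were seen. Python 3.11.15 and matplotlib 3.10.9 were used for the plots.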

Additional observations from a re-analysis of the deposited data

How the results depend on the processing

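The number of the 7 genes called in neurons was 1 (Gabrd). It was 0 with no filter on low counts, without the 2 low-input libraries, without the 4 libraries of replicate 3 (an alternative chosen after seeing the data) and at FDR below 0.05. It was 2 (Gabrd and Gabra5) with at least 10 reads in every library, with DESeq2, with the 6 neuron libraries alone and with the replicate block. Leaving out each library in turn gave 0 to 1. In glia the number was 0, and it was 1 on library totals, 3 with at least 10 reads in every library and with DESeq2, and 4 with the replicate block. Leaving out each library gave 0 to 1. The replicate block was fitted only for KA against SH within each fraction. The block by pool left the difference between fractions at 0 genes and NeuN+ against NeuN- at 7. Over all genes, calls in neurons numbered 128 without and 1147 with the block, 456 with DESeq2 and 24 without replicate 3, and in glia 281, 2871, 1010 and 6. With at least 10 reads in every library they numbered 465 in neurons and 1203 in glia, of 18632 genes tested. The cause was not tested. Every call of the 7 genes for KA against SH in these settings was in the lower direction.

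The logFC in neurons reversed on library totals for Gabra2 (0.018), Gabrb1 (0.047) and Gabrb2 (0.12), and without replicate 3 for Gabra2 (0.027), Gabrb1 (0.019) and Gabrb2 (0.18). That of Gabrb2 also reversed with at least 10 reads in every library (0.039) and with the replicate block (0.0096). Leaving out single libraries or replicate 3 gave ranges across 0 in neurons for Gabra2 (−0.27 to 0.16), Gabra3 (−0.033 to 0.33), Gabrb1 (−0.16 to 0.019) and Gabrb2 (−0.25 to 0.19). For the difference between fractions, Gabra5 reversed on library totals (−0.12) and with edgeR 4 (−0.022), and leaving out single libraries gave −0.19 to 0.21 for Gabra5, −0.070 to 0.86 for Gabra2, −0.044 to 0.96 for Gabra4 and −0.54 to 0.14 for Gabrd. With 3 pools a group, a fit without 1 library assumes that the remaining libraries vary like the other groups. Gabrd in glia rests on as few as 20 reads per library, which limits its precision.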
